A study of Mus musculus with 18 samples.

Results

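The genes described here encode 9 enzymes of the methionine cycle and of transsulfuration, the pathway that leaves it: Mat1a, Mat2a, Gnmt, Pemt, Ahcy, Bhmt, Bhmt2, Cbs and Cth. They were picked by symbol and not by any measured value, although earlier results of these data were known. All 9 were found among the 14451 genes of the table. Each was measured above the lowest value in every liver and is among the 14449 genes tested. RNA sequencing was done on whole livers of wild-type male mice aged 8 to 9 weeks, kept in 12 h light and 12 h dark with no other treatment stated. Times are given as ZT (zeitgeber time, hours since lights on). There were 6 time points with 3 livers from 3 mice at each: ZT1, ZT5 and ZT9, whose 9 livers are called light livers, and ZT13, ZT17 and ZT21, whose 9 are called dark livers. More mice were kept than sequenced, and the RNA of best quality was used. The study set out to find transcripts that cycle over the day, and the comparison made here asks when each enzyme's mRNA was high and low.

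In the methionine cycle, methionine is joined to adenosine to form S-adenosylmethionine, the methyl donor of the cell. After the methyl group has been passed on, S-adenosylhomocysteine remains and is split into adenosine and homocysteine. Homocysteine is either methylated again to methionine, from betaine or from folate, or is led away through transsulfuration to cystathionine and cysteine, and the liver carries out all of these steps at high rates.

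The deposited values are estimated reads per gene scaled to 1000000 reads of a library size set by the authors, and are called normalized values below. Depth lay between 10268168 and 23242842 estimated reads per liver. The member with the fewest reads in any liver, Mat2a, still had 631 there, for which counting error alone is 3.98%. Over 10 clock genes, 17 of the 18 livers were nearest to the mean of their own time point, and replicate 3 of ZT5 was nearer to ZT9. The 4 hepatocyte markers summed to between 68192 and 99047 per liver. Sums of 4 markers each were between 62.1 and 144.5 for Kupffer cells, between 71.9 and 168 for sinusoidal endothelial cells, between 131 and 207 for stellate cells, between 5.58 and 15.1 for cholangiocytes and between 99.6 and 412 for red blood cells. Lymphocyte markers (3 of 4 in the table) summed to at most 4.18 and exocrine pancreas markers (2 of 4 in the table) to at most 15.3. Of these markers, 3 of 4 for cholangiocytes (Sox9, Krt19 and Epcam, time point means of the sum from 6.36 to 13.1), 2 of 4 for sinusoidal endothelial cells (Stab2 and Kdr) and 1 of 4 for Kupffer cells (Timd4) were called for the 24 h term described below, and their part in the results was not tested. Replicate 1 of ZT5 had the highest sums for Kupffer, sinusoidal endothelial, stellate and red blood cells.

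Promoter windows from RefSeq (GRCm38.p6, 250 bases before to 50 bases after the start site) were at hand for 7 of the 9 genes, with 8 windows in all because Pemt had more than 1. They were searched on both strands for 3 motifs of clock factors: the E-box CACGTG, bound by CLOCK and BMAL1, the D-box TTANGTAA, bound by DBP and its relatives, and TAGGTCA, the core of the element bound by ROR and REV-ERB proteins. Of 32851 windows of the same length, 7.15% held the E-box, 2.32% the D-box and 2.61% the ROR core. The stretches of Cbs and Bhmt are shown because they were the only member windows with a match, and that of Ahcy because its rhythm was among the clearest and it had none. Capitals mark a match, each stretch is read on the minus strand and ends where the first annotated exon begins, and the coordinates are chr17:31637239-31637455 for Cbs, chr13:93637962-93638008 for Bhmt and chr2:155074498-155074747 for Ahcy.
Cbs: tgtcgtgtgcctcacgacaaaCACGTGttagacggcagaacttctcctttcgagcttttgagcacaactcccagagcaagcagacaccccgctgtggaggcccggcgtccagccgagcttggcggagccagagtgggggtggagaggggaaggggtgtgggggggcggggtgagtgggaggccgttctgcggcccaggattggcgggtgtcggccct
Bhmt: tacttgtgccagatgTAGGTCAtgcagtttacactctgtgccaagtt
Ahcy: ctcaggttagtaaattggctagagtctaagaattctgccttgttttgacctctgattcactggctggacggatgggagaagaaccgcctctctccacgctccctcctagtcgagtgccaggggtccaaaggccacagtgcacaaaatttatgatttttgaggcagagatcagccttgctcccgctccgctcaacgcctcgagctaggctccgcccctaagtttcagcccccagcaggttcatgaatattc
The E-box of Cbs begins at position -229 from the RefSeq start site, and the ROR core of Bhmt at -235. The windows of Ahcy, Mat2a, Pemt, Bhmt2 and Gnmt held none of the 3 motifs. A match is a description of letters, and binding was not measured.

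Of the 9 mRNAs, 7 differed among the time points, namely Mat1a, Mat2a, Ahcy, Bhmt, Bhmt2, Cbs and Cth (limma moderated F test on log2(value + 1), Benjamini-Hochberg adjusted over all genes, called below 0.05). Over all genes 26.3% were called by this test. The same 7 were called for a 24 h cosine, against 35.3% of all genes and 51.4% of the 1682 genes whose mean value was at least that of Mat2a. The median 24 h amplitude, which is the height of the fitted curve above its mean, was 0.38 on the log2 scale for the 9 genes and 0.16 over all genes tested. None of the 9 was called for a 12 h term (0.872% of all genes by limma), and none had an unadjusted p below 0.05 for it, the lowest being that of Cbs at 0.0508 in limma. By the rank test JTK, with periods of 20, 24 and 28 h, 4 were called (Ahcy, Bhmt, Bhmt2 and Cbs), against 14% of all genes. Livers were whole tissue, in which fewer cells of a type and less RNA per cell cannot be told apart.

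**Figure D1:**
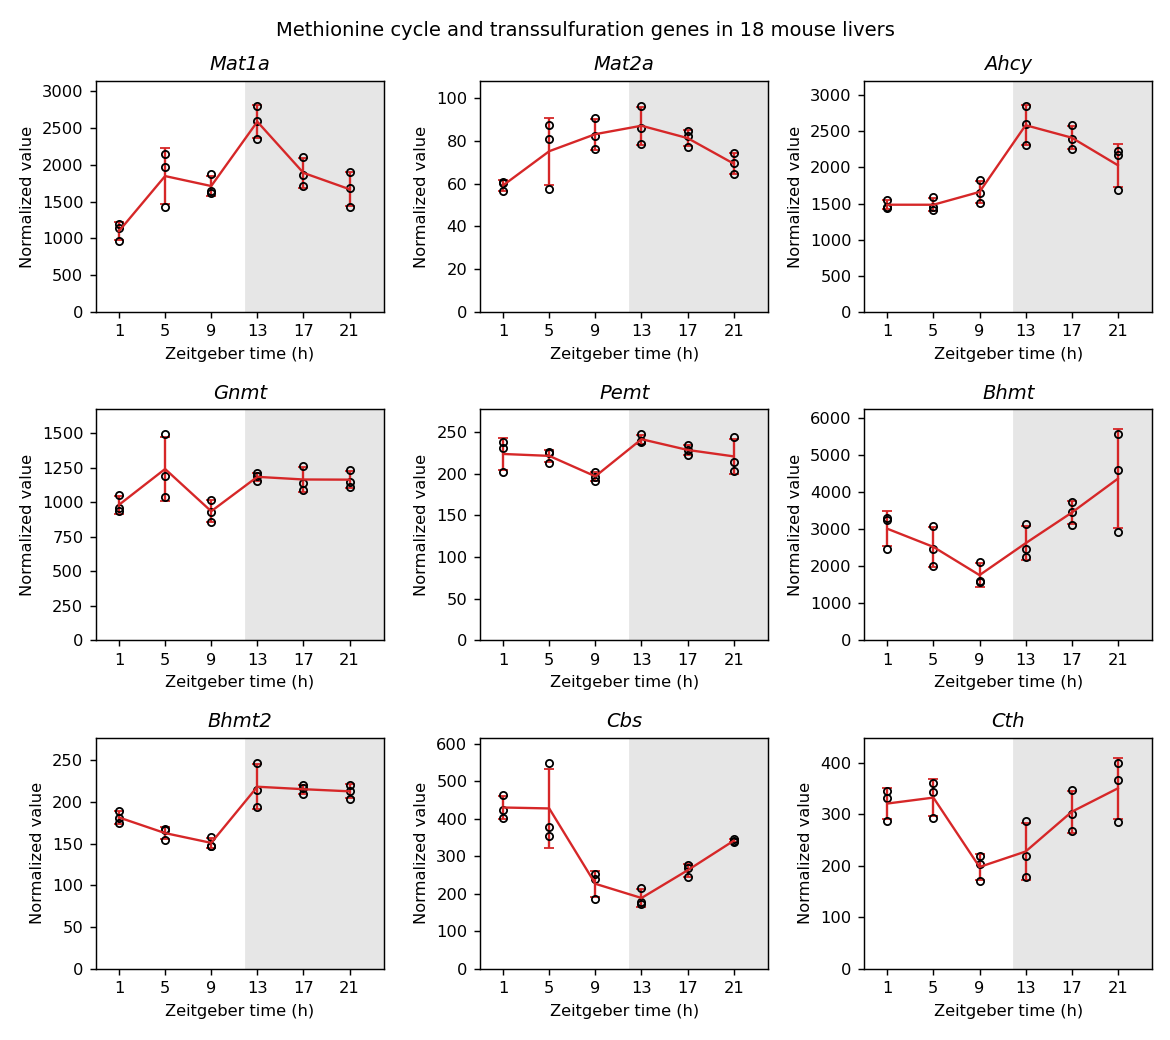
Normalized value of each of the 9 genes (vertical axes, linear, starting at 0) against zeitgeber time in h. Open points are single livers, lines and bars are the mean and SD of 3 livers, and grey marks the dark. Cbs falls from a mean of 428 at ZT5 to 189 at ZT13, while Ahcy rises from 1483 to 2585 over the same times.

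The fitted peaks of the 7 called genes followed one another around the clock from Mat2a at ZT 12.4 (SE 0.81 h) and Mat1a at 13.0 (SE 0.78) to Ahcy at 15.7 (SE 0.44), Bhmt2 at 17.97 (SE 0.63), Bhmt at 20.5 (SE 0.64), Cth at 22.9 (SE 0.80) and Cbs at 1.13 (SE 0.43). The peaks of Mat2a and Mat1a lay closer together than their standard errors, and differences in peak time between genes were not tested. The fitted maxima of the synthases of S-adenosylmethionine and the hydrolase lay from ZT 12.4 to 15.7. Those of the homocysteine methyltransferases lay at 17.97 and 20.5, and those of the transsulfuration enzymes at 22.9 and 1.13. This order is of fitted curves only. The highest mean of Bhmt2 was at ZT13, like those of Mat1a, Mat2a and Ahcy, and its means stayed level in the dark (218, 215 and 212 at ZT13, ZT17 and ZT21). Gnmt and Pemt, the methyltransferases of the list that do not methylate homocysteine, had no called rhythm.

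**Figure D2:**
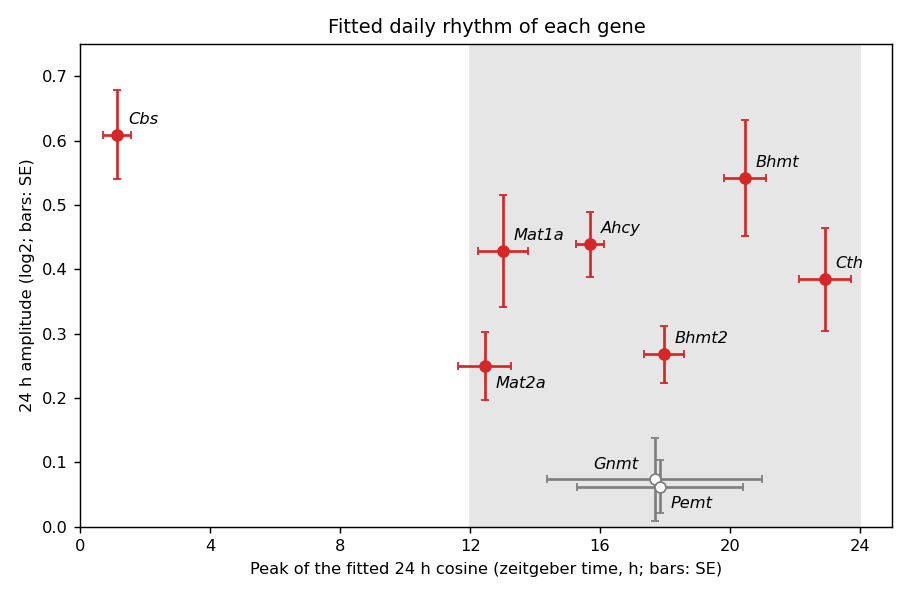
Fitted 24 h peak time (horizontal axis, ZT in h) against 24 h amplitude on the log2 scale (vertical axis) for each of the 9 genes, with standard errors as bars, called genes in red and the dark in grey. The 7 called genes spread from Mat2a at 12.4 h to Cbs at 1.13 h, and Gnmt and Pemt lie lowest, with amplitudes of 0.074 and 0.062.

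Mat1a (ENSMUSG00000037798, chr14:41105035-41124412, plus strand, GRCm38) encodes the methionine adenosyltransferase of adult hepatocytes. Its normalized values were 1136, 963 and 1194 at ZT1, 1969.7, 1425 and 2144 at ZT5, and 1869, 1649 and 1614 at ZT9. In the dark they were 2802, 2601 and 2354 at ZT13, 2103, 1708 and 1858 at ZT17, and 1679.5, 1896 and 1427 at ZT21. All livers of ZT1 were below all others, and all livers of ZT13 above all others. The mean rose 2.36-fold from 1098 ± 120.4 (SD, n = 3) at ZT1 to 2586 ± 225 at ZT13 (24 h amplitude 0.43, SE 0.087, limma adjusted p = 0.00346). The rise was called in the step from ZT1 to ZT5 (log2 difference 0.73, SE 0.15, limma adjusted p = 0.0100) and in that from ZT9 to ZT13 (0.60, SE 0.15, limma adjusted p = 0.0225). The first of these steps was not called without replicate 2 of ZT1 (limma adjusted p = 0.0612) or replicate 3 of ZT5 (0.0582), and the second was not called without any 1 of 4 livers: replicates 2 and 3 of ZT9 and replicates 1 and 2 of ZT13 (0.0574 to 0.0885). JTK did not call Mat1a (adjusted p = 0.105), but did when its period was held at 24 h (0.0457).

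Mat2a (ENSMUSG00000053907, chr6:72432799-72439558, minus strand) encodes the methionine adenosyltransferase of most other tissues. It was expressed far below Mat1a: per kilobase of exon, the Mat1a value was between 20.5 and 44.5 times that of Mat2a, with a median of 29.2 over the 18 livers. Mat2a had normalized values of 56.4, 60.7 and 60.4 at ZT1, 57.3, 80.9 and 87.2 at ZT5, and 76.2, 82.4 and 90.7 at ZT9. In the dark it stood at 86.1, 96.4 and 78.6 at ZT13, 76.9, 84.4 and 82.4 at ZT17, and 74.2, 69.4 and 64.3 at ZT21. As for Mat1a, the lowest mean was at ZT1 (59.1 ± 2.42, SD, n = 3) and the highest at ZT13 (87.0 ± 8.92), with a smaller ratio of 1.47. The 24 h amplitude was 0.25 (SE 0.053, limma adjusted p = 0.00469), while JTK did not call it (adjusted p = 0.0852) unless its period was held at 24 h (0.0377). The difference among time points (limma adjusted p = 0.0381) was lost on leaving out any 1 of 12 of the 18 livers, with adjusted p from 0.0508 to 0.107. The log2 ratio of Mat2a to Mat1a was -4.65 ± 0.23 (SD, n = 9) in dark livers and -4.38 ± 0.34 in light livers, a difference of -0.27 that was not called (exact two-sided permutation test, p = 0.0589, Benjamini-Hochberg adjusted over 4 ratios 0.118). Without replicate 1 of ZT5 its adjusted p was 0.00971. Mat2a stood at 57.3 in that liver, and at 80.9 and 87.2 in the other livers of ZT5. Of the 50-base stretches of Mat2a transcripts 4.6% occur in another gene, Gm9523, and Particl, transcribed from the opposite strand over 508 of its exon bases, had values from 0.107 to 1.00.

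Gnmt (ENSMUSG00000002769, chr17:46725664-46729168, minus strand) encodes glycine N-methyltransferase, which uses up S-adenosylmethionine to make sarcosine. Per kilobase it had the highest level of the 9 genes, above Ahcy in 17 of 18 livers. Its normalized values were 955, 935 and 1053 at ZT1, 1492, 1041 and 1189 at ZT5, 1016, 858 and 929 at ZT9, 1209, 1155 and 1187 at ZT13, 1138, 1090.1 and 1265 at ZT17, and 1234, 1144 and 1113 at ZT21. The highest value came from replicate 1 of ZT5, the liver with the highest sums of Kupffer, endothelial, stellate and red blood cell markers, whose part in this value was not tested. The 3 livers of ZT5, the highest time point, did not overlap those of ZT9, the lowest, but those of ZT5 spread from 1041 to 1492. Neither the 24 h term (limma adjusted p = 0.620) nor the difference among time points (0.0614) was called. Without replicate 1 of ZT5 the difference among time points (limma adjusted p = 0.0424), dark against light (0.17 on the log2 scale with all livers and adjusted p = 0.0787, but 0.0142 without this liver) and the step from ZT9 to ZT13 (0.0351) were called. Without replicate 2 of ZT5, the difference among time points (0.0223) and the step from ZT1 to ZT5 (0.0463) were called.

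Pemt (ENSMUSG00000000301, chr11:59970614-60046489, minus strand) encodes phosphatidylethanolamine N-methyltransferase, which makes phosphatidylcholine and is a large user of S-adenosylmethionine in liver. It was the steadiest of the 9, its highest mean being 1.23 times its lowest. The values at the lowest time point, ZT9, were 196, 192 and 202, and those at the highest, ZT13, were 247, 238 and 239. At the other time points they were 202, 231 and 238 at ZT1, 226, 213 and 224 at ZT5, 234, 222 and 229 at ZT17, and 244, 214 and 204 at ZT21. Neither the 24 h term (limma adjusted p = 0.452) nor the difference among time points (0.174) was called. The step from ZT9 to ZT13 passed (log2 difference 0.29, SE 0.087, limma adjusted p = 0.0471), but in 15 of 18 fits without 1 liver it did not (up to 0.134). The ratio of Gnmt to Pemt differed between dark and light by 0.064 on the log2 scale, which was not called (exact permutation test, p = 0.400, adjusted 0.455). Without replicate 1 of ZT5 the difference was 0.12 and was called (exact permutation test, adjusted p = 0.0403).

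Ahcy (ENSMUSG00000027597, chr2:155059310-155074497, minus strand) encodes the hydrolase that splits S-adenosylhomocysteine, the product and inhibitor of methyltransferases. The light livers had normalized values of 1457, 1440.3 and 1553 at ZT1, 1451, 1413 and 1586 at ZT5, and 1819, 1513 and 1649 at ZT9. The dark livers had 2854, 2597 and 2304 at ZT13, 2582, 2262 and 2392 at ZT17, and 2223, 2177 and 1691 at ZT21. All but 1 dark liver (replicate 3 of ZT21) were above every light liver. The mean was 1.74-fold higher at ZT13 (2585 ± 275, SD, n = 3) than at ZT5 (1483 ± 90.9), and the 24 h amplitude was 0.44 (SE 0.051, limma adjusted p = 1.8e-05, JTK 0.0109). The rise was placed in the step from ZT9 to ZT13, which spans lights off (log2 difference 0.64, SE 0.12, limma adjusted p = 0.00332). Dark livers were higher than light livers by 0.59 (SE 0.067, limma adjusted p = 2.73e-05). Of the distinct 50-base stretches of Ahcy transcripts, 68.7% also occur in 4 near-copies, so that reads could be split between them. The near-copy in the table, Gm4737, had values from 0.0208 to 78.2 with a median of 1.202.

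Bhmt (ENSMUSG00000074768, chr13:93616675-93637961, minus strand) encodes betaine-homocysteine methyltransferase, which remakes methionine with a methyl group of betaine. Its normalized values were 3246, 2466 and 3306 at ZT1, 2464, 2002 and 3082 at ZT5, and 1587, 2122 and 1560.0 at ZT9. They were 3134, 2248 and 2464 at ZT13, 3738, 3464 and 3117 at ZT17, and 5551, 4588 and 2921 at ZT21. Every liver of ZT9 lay below every liver of ZT13, ZT17, ZT21 and ZT1, whereas the 3 livers of ZT21 were the most scattered of any time point. From ZT9 (1756 ± 317, SD, n = 3) to ZT21 (4353 ± 1330.5) the mean rose 2.48-fold, the largest ratio among the 9 genes (24 h amplitude 0.54, SE 0.090, limma adjusted p = 0.00064, JTK 0.0229). No single step between neighbouring time points was called, and dark livers were higher than light livers by 0.51 (SE 0.13, limma adjusted p = 0.00917). Of its 50-base stretches, 25.3% occur in other genes, among them Bhmt2 and Gm5096, and the latter had values from 7.12 to 68.4. Gm15622, transcribed from the opposite strand over 187 of its exon bases, had values from 0.181 to 13.7.

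Bhmt2 (ENSMUSG00000042118, chr13:93655720-93674302, minus strand), the neighbour of Bhmt, encodes a methyltransferase that takes its methyl group from S-methylmethionine. Its values were 180.1, 174 and 189 at ZT1, 166, 154 and 167 at ZT5, and 158, 147 and 147 at ZT9. They were 247, 194 and 213 at ZT13, 216, 209 and 219.9 at ZT17, and 213, 220.4 and 204 at ZT21. Its dark and light livers did not overlap, with the highest light liver at 189 and the lowest dark liver at 194. Those of the other members did overlap, and the share of all genes without such overlap was not counted. The step from ZT9 to ZT13 was called (log2 difference 0.52, SE 0.090, limma adjusted p = 0.0022), and values then held near 215 through the dark. The 24 h amplitude was 0.27 (SE 0.044, limma adjusted p = 0.000565, JTK 0.0435) and the difference of dark from light 0.38 (SE 0.052, limma adjusted p = 0.000102). Per kilobase, Bhmt was between 4.32 and 11.1 times higher than Bhmt2, with a median of 6.15. The log2 ratio of Bhmt2 to Bhmt differed between dark and light by -0.13, which was not called (exact permutation test, p = 0.455, adjusted 0.455).

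Cbs (ENSMUSG00000024039, chr17:31608894-31637238, minus strand) encodes cystathionine beta-synthase, which commits homocysteine to transsulfuration. Its normalized values were 403, 425 and 463 at ZT1, 549.7, 379.5 and 354 at ZT5, and 187, 240.2 and 253 at ZT9. In the dark they were 216, 173 and 177 at ZT13, 276, 244 and 268 at ZT17, and 341, 338 and 346 at ZT21. All livers of ZT1 and ZT5 were above all others, and from ZT13 to ZT1 the values climbed with no overlap between one time point and the next. Cbs had the largest 24 h amplitude of the 9 genes, 0.61 (SE 0.069, limma adjusted p = 1.4e-05, JTK 0.0074), and the mean at ZT1 (430.2 ± 30.0, SD, n = 3) was 2.28-fold that at ZT13 (189 ± 23.8). The fall came between ZT5 and ZT9 and measured -0.90 on the log2 scale (SE 0.15, limma adjusted p = 0.00698). The highest of all 18 values, 549.7, belonged to replicate 1 of ZT5, and without that liver the step kept its call (limma adjusted p = 0.0270). It was also called without replicate 3 of ZT5, the liver nearer to ZT9 by clock genes (limma adjusted p = 0.00441). Cbs was the 1 gene of the 9 that was lower in the dark, by -0.42 (SE 0.088, limma adjusted p = 0.00291).

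Cth (ENSMUSG00000028179, chr3:157894248-157925077, minus strand) encodes cystathionine gamma-lyase, which releases cysteine from cystathionine. Its values were 286, 331 and 344 at ZT1, 343, 292 and 361 at ZT5, and 219, 170.3 and 203 at ZT9. They were 178, 287 and 218 at ZT13, 347, 267 and 299.9 at ZT17, and 366, 399.8 and 285 at ZT21. The 3 livers of ZT9 were below all livers of ZT17, ZT21, ZT1 and ZT5, while those of ZT13 ran from 178 to 287. The mean was 1.77-fold higher at ZT21 (350.1 ± 59.2, SD, n = 3) than at ZT9 (198 ± 24.8), and the 24 h amplitude was 0.38 (SE 0.080, limma adjusted p = 0.00402). JTK did not call it (adjusted p = 0.290). The step from ZT5 to ZT9 was called at -0.75 (SE 0.17, limma adjusted p = 0.0425), but not in 12 of 18 fits without 1 liver (up to 0.152). Dark and light livers differed by 0.058 on the log2 scale (SE 0.10), which was not called (limma adjusted p = 0.717).

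Between dark and light livers, 4 of the 9 genes were higher in the dark (Mat1a, Ahcy, Bhmt and Bhmt2), against 11.9% of all genes, and Cbs alone was lower, against 12.3%. The median difference was 0.17 for the 9 genes and -0.01 over all genes. The split over all genes depended on scaling: 49.2% of called genes were higher in the dark as deposited, and 30.4% when each liver was scaled to a sum of 1000000, while the same 5 members were called with the same signs. Homocysteine has 2 ways out in this list, remethylation by Bhmt and Bhmt2, and transsulfuration from Cbs. The mRNA ratio of Cbs to Bhmt, 1 gene of each way, differed between dark and light livers. Bhmt2 and remethylation from folate are not part of this ratio. The log2 ratio of Cbs to Bhmt was -3.70 ± 0.27 (SD, n = 9) in dark livers and -2.77 ± 0.35 in light livers, a difference of -0.93 (exact two-sided permutation test, p = 0.000165, adjusted over 4 ratios 0.000658). The test pools 3 time points in each phase, whose differences are part of the SD. By its making, this difference is that of Cbs (-0.42) less that of Bhmt (0.51), both called above. It is therefore not evidence apart from those 2 calls. Over single livers the Cbs value was between 6.17% and 22.3% of the Bhmt value.

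**Figure D3:**
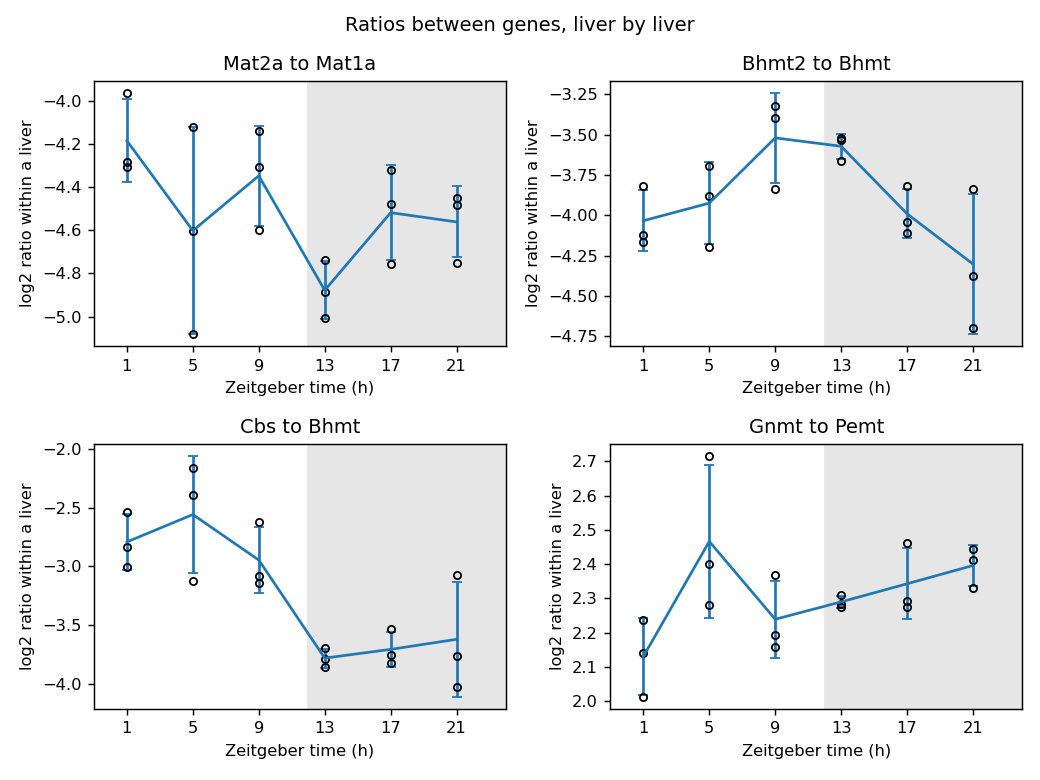
Log2 ratio of the normalized values within each liver (vertical axes) against zeitgeber time in h for Mat2a to Mat1a, Bhmt2 to Bhmt, Cbs to Bhmt and Gnmt to Pemt. Open points are single livers, lines and bars are the mean and SD of 3 livers, grey marks the dark, and 1 was added to each value before the log. Cbs to Bhmt drops from -2.95 at ZT9 to -3.78 at ZT13.

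Called steps between neighbouring time points fell in 3 of the 6 intervals. Each step was adjusted on its own, so that changes of like size could differ in call. Mat1a changed by -0.60 from ZT21 to ZT1 (SE 0.15, limma adjusted p = 0.207), which was not called. Its called rise from ZT9 to ZT13 measured 0.60 (SE 0.15, limma adjusted p = 0.0225). Ahcy changed by -0.44 from ZT21 to ZT1 (SE 0.12, limma adjusted p = 0.227), also not called. From ZT1 to ZT5 Mat1a rose (2.53% of all genes were called higher), and from ZT5 to ZT9 Cbs and Cth fell (0.9% of all genes were called lower). From ZT9 to ZT13 Mat1a, Pemt, Ahcy and Bhmt2 rose (4.64% of all genes were called higher). No member was called by limma from ZT13 to ZT17, ZT17 to ZT21 or ZT21 to ZT1, where 1.2%, 1.51% and 0.131% of all genes were called in either direction. At an unadjusted p below 0.05, 3 members passed in the first of these steps (Mat1a, Cbs and Cth), 2 in the next (Ahcy and Cbs) and 5 in the last (Mat1a, Ahcy, Bhmt, Bhmt2 and Cbs). The percentages above are for adjusted calls, and the share of all genes at the unadjusted threshold is not given here. Whether these unadjusted counts exceed that share therefore cannot be read from them. Without replicate 3 of ZT5 no member was called from ZT1 to ZT5, 1 from ZT5 to ZT9 and 3 from ZT9 to ZT13, and the counts for the 24 h term, the time points and dark against light stayed at 7, 7 and 5. ZT9 was the lowest time point of Gnmt, Pemt, Bhmt, Bhmt2 and Cth. The summed hepatocyte markers were also lowest there, between 68192 and 72732 against 73361 or more at the other time points, with 2 of the 4 markers (Ttr and Serpina1c) called for the 24 h term. Their part in the low values of ZT9 was not tested.

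Ordered by mean value per kilobase of exon over the 18 livers, Gnmt came first (921 ± 124, SD, n = 18), followed by Ahcy (693 ± 170.2), Mat1a (519 ± 141), Bhmt (512 ± 175), Pemt (106 ± 8.23), Cth (103 ± 24.4), Bhmt2 (77.0 ± 12.0), Cbs (41.8 ± 14.05) and Mat2a (16.9 ± 2.67). Mat1a was above Bhmt in 9 of 18 livers and Pemt above Cth in 8 of 18, so that these neighbours did not differ beyond their spread. In every other pair of neighbours the higher gene was above in at least 16 of 18 livers. The sequence that Ahcy and Bhmt share with other genes, given above, makes their own places in this order less certain. The order also depends on length, taken as all annotated exons of a gene together, and the lengths of the mRNAs present were not measured. Before division by length Bhmt had the highest mean value, 2948 over 5.758 kb, against 1111 over 1.206 kb for Gnmt.

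The other genes that feed the cycle or draw on it, 57 by list, were measured for 55, and 37 of these were called for the 24 h term and 28 for a difference among time points, against 35.3% and 26.3% of all genes. Dark livers were higher in 18 and lower in 3 (11.9% and 12.3% of all genes), JTK called 14 (14% of all genes), and the 12 h term called Gldc alone (limma adjusted p = 0.0163). The split of 18 and 3 was counted on the deposited scaling only, and the split over all genes depended on scaling, as given above. The counts for single groups below are for the 24 h term unless stated otherwise. They are read against the same 35.3%, or 51.4% among genes at least as high as Mat2a, and no group was tested against it. In folate remethylation 7 of 14 were called for 24 h, near that background. Amt, a part of the glycine cleavage system, peaked at ZT 23.8 with a 24 h amplitude of 0.66 (limma adjusted p = 1.01e-06), and Gldc, another part of it, at 20.5 with 0.65 (0.00052).

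In the supply of choline and betaine and the breakdown of sarcosine 2 of 4 were called, Sardh (sarcosine dehydrogenase, amplitude 0.19, peak 14.2, limma adjusted p = 0.0141) and Aldh7a1 (0.11, peak 19.6, 0.0439). Of the genes listed for S-adenosylmethionine supply and clearance of its products, 4 of 6 were called: Mat2b, Mettl16, Ahcyl1 and Ahcyl2. The genes of adenosine clearance, Adk and Ada, were not called (limma adjusted p = 0.152 and 0.200). For a difference among time points 2 of the 6 were called, and JTK called 1. Mat2b, a regulatory subunit of the Mat2a enzyme, peaked at 4.21 (amplitude 0.22, limma adjusted p = 0.03) and was lower in the dark by -0.32 (limma adjusted p = 0.0015), and Ahcyl2, a relative of Ahcy, peaked at 20.3 (0.44, 0.000728). Among other methyltransferases 8 of 9 were called, led by Nnmt, which methylates nicotinamide (amplitude 0.76, peak 14.1, limma adjusted p = 0.00335), and Inmt (0.41, peak 12.4, 0.000135). For a difference among time points 6 of these 9 were called, and JTK called 3.

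Downstream of Cth, in cysteine, taurine and sulfide metabolism, 7 of 8 measured genes were called. For a difference among time points 6 of these 8 were called, and JTK called 3. Ethe1, the mitochondrial persulfide dioxygenase, fell from 63.4 ± 10.1 at ZT1 to 19.2 ± 3.14 at ZT9 (SD, n = 3, amplitude 0.85, peak 22.5, limma adjusted p = 2.03e-07), and Csad, which makes hypotaurine, peaked at 22.8 (amplitude 0.57, limma adjusted p = 0.00121). In glutathione metabolism 3 of 4 were called (Gclc, Gss and Ggct), and Gclm was not (limma adjusted p = 0.239). Gclc, the catalytic subunit of the enzyme that joins glutamate and cysteine, was highest at ZT1 (503 ± 59.0, SD, n = 3) and lowest at ZT13 (215 ± 89.5), with a peak at 23.5 (amplitude 0.51, limma adjusted p = 0.00253), and Ggct peaked at 21.2 (0.33, 0.0064). The other called genes of these groups, peaked at 9.63 (Sqrdl), 10.9 (Gss), 18.4 (Mpst), 18.95 (Tst), 20.1 (Ado) and 21.8 (Suox), so that the fitted peaks of the called genes in these groups ranged from 9.63 to 23.5.

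Methionine salvage had 1 of 5 called, Mtap (amplitude 0.24, peak 19.8, limma adjusted p = 0.00652). The synthesis of phosphatidylcholine from dietary choline, the route beside Pemt, had 5 of 5 measured genes called for the 24 h term. For a difference among time points 2 of these 5 were called, and JTK called 2. Chka, the choline kinase that begins it, went from 13.99 ± 0.375 at ZT9 to 143 ± 16.3 at ZT1 (SD, n = 3), a ratio of 10.2, the largest of the genes named here (amplitude 1.62, peak 20.8, limma adjusted p = 3.81e-06). Chkb peaked at 23.8 (amplitude 0.32, limma adjusted p = 0.000375). Pemt, by contrast with Chka, kept its means between 197 and 241.

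**Figure D4:**
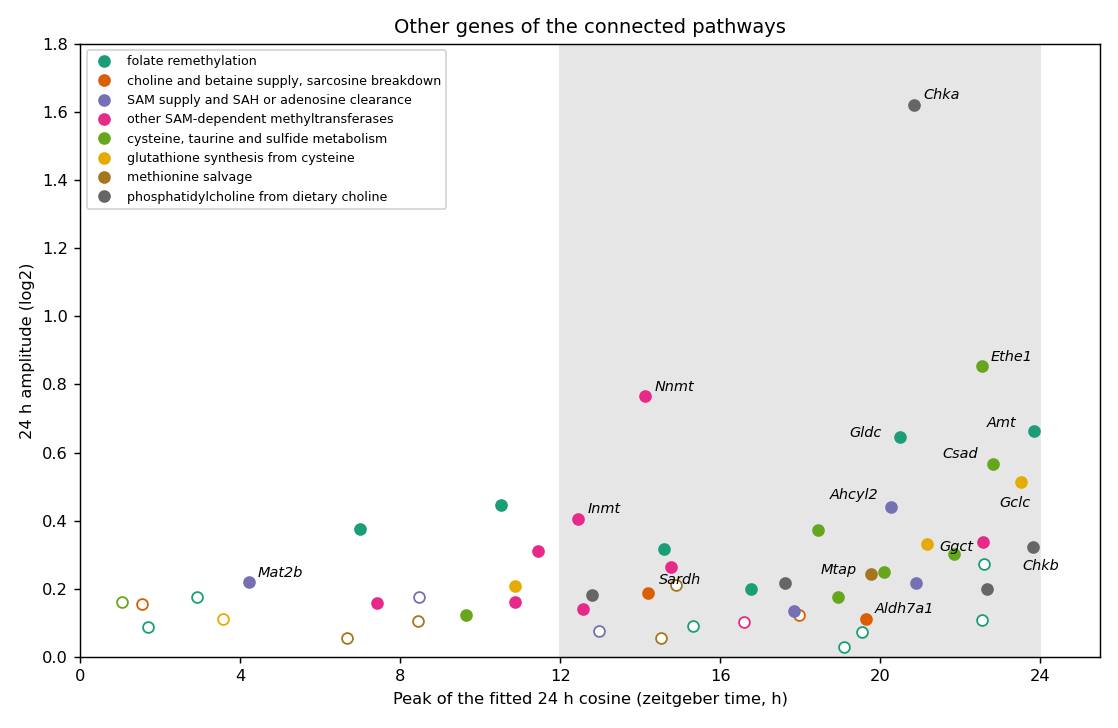
Fitted 24 h peak time (horizontal axis, ZT in h) against 24 h amplitude on the log2 scale (vertical axis) for 54 of the 55 measured genes around the cycle, coloured by group, with filled points for the 36 of them called for the 24 h term, open points for the rest and grey for the dark. Chka stands highest of those shown, with an amplitude of 1.62 and a peak at 20.8 h, and Ethe1 follows with 0.85 at 22.5 h.

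For the 3 members with the largest called amplitudes, the genes most like them were sought among 9323 genes with a mean value of at least 5, by the root mean square difference of centred log2 values over the 18 livers. Nearest to Cbs were Amdhd1 (0.187), Hsd3b7 (0.205) and Abcb11 (0.212), against a root mean square of 0.473 for Cbs about its own mean. Nearest to Bhmt were Fpgs (0.278), Pid1 (0.284) and S100a10 (0.288), against 0.466. Nearest to Ahcy were Tango2 (0.113), Glrx (0.132) and Nop56 (0.137), against 0.338. The remainder was thus smallest for Ahcy and largest for Bhmt.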

How the data were processed

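Livers were sequenced as whole RNA from 3 mice per time point. Per the labels and the study's methods, the authors demultiplexed reads with CASAVA 1.8.2, removed adapters with cutadapt, mapped them to the GRCm38 transcriptome and obtained estimated counts with RSEM 1.2.20, then normalized with limma. The deposited values are a linear signal, made by adding 0.5 to each estimated count and dividing by a library size so that they read per 1000000. Whether counting used strand is not given in the sources used here. Between 39.0% and 47.9% of values per liver came out as whole reads, so count tests were not used.

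The 14449 genes above the lowest value in at least 1 liver were fitted with limma 3.58.1 (R 4.3.3) on log2(value + 1), with Benjamini-Hochberg adjustment over all of them and a call below 0.05. Fits were a 24 h cosine, 24 h and 12 h terms together, 6 time point means, dark minus light (ZT13, ZT17, ZT21 against ZT1, ZT5, ZT9) and the 6 neighbouring steps. Since low genes are damped by the added 1, log2 differences understate their change. JTK was written in Python 3.11.15 with the exact null for 6 groups of 3, Bonferroni adjustment over 18 orders and Benjamini-Hochberg adjustment over genes. Log2 ratios of members were compared by exact two-sided permutation tests of 9 against 9 livers. The limma fits and JTK were tried on simulated data, and the permutation tests were not. Named pathway genes are the 2 of each group with the largest called 24 h amplitude, and any called for 12 h, of which 1 gene is not reported here. The alternatives covered pseudocounts, scaling, low values, the variance prior, voom weights and leaving out each liver. Members, lists and tests were chosen with earlier results of these data known. Replicate numbers follow sample order and only name livers. Exon lengths and coordinates are those of GENCODE M21, with 50-base stretches compared among its transcripts, and promoters are from RefSeq.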

Additional observations from a re-analysis of the deposited data

How the results depend on the processing

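The calls of the 7 members for the 24 h term held under all 7 alternative settings of limma and without any 1 of the 18 livers, and no called result changed sign. JTK in place of the cosine called 4 members and 2018 genes for 24 h. With each liver scaled to a sum of 1000000, which moved log2 values of a liver by -0.11 to 0.088, the share of dark-against-light calls that were higher in the dark was 30.4% in place of 49.2%, and JTK called 2 members in place of 4, with adjusted p of 0.0535 for Bhmt and 0.0670 for Bhmt2. With a pseudocount of 0.1 or none the 12 h term called 76 and 62 genes in place of 126, and the step from ZT5 to ZT9 called 1 member in place of 2 (Cth, limma adjusted p = 0.0590 and 0.0612). A trend in the variance prior gave 334 genes for ZT5 to ZT9 (222 as reported), 300 for ZT13 to ZT17 (174), 333 for ZT17 to ZT21 (218) and 29 for ZT21 to ZT1 (19), and voom weights gave 358 and 387 for the ZT13 to ZT17 and ZT17 to ZT21 steps. The cause of these shifts was not tested. Gnmt was called among time points with a mean value of at least 1 required (limma adjusted p = 0.0497), with the variance trend (0.0329) and with voom weights (0.0295), which also called it for dark against light (0.0477) and from ZT9 to ZT13 (0.0454), and Pemt among time points (0.0477). Pemt was not called from ZT9 to ZT13 under the sum scaling (0.0984) or the median-ratio scaling (0.0505).

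Without 1 liver, the counts of genes were 3245 to 3598 among time points, 4573 to 5088 for 24 h, 32 to 114 for 12 h and 2896 to 3387 for dark against light. For the steps in order from ZT1 they were 352 to 729, 79 to 238, 701 to 1342, 49 to 208, 49 to 209 and 9 to 19. Members called were 6 to 8 among time points, 5 to 6 for dark against light, 0 to 2 from ZT1 to ZT5, 1 to 2 from ZT5 to ZT9 and 2 to 4 from ZT9 to ZT13. The dark minus light difference of the log2 ratio ranged from -0.36 to -0.22 for Mat2a to Mat1a, -0.18 to -0.04 for Bhmt2 to Bhmt, -1.01 to -0.86 for Cbs to Bhmt and 0.031 to 0.12 for Gnmt to Pemt, the first and the last of which were called without replicate 1 of ZT5. The call of Mat2a among time points was lost without any liver of ZT1 or ZT17, replicates 2 or 3 of ZT9 or ZT21, or replicates 1 or 2 of ZT13 (adjusted p up to 0.107). The step of Cth from ZT5 to ZT9 was lost without any liver of ZT1, ZT5 or ZT9, replicate 3 of ZT13 or ZT17, or replicate 1 of ZT21 (up to 0.152). That of Pemt from ZT9 to ZT13 held only without replicate 1 of ZT1 or replicate 1 or 3 of ZT21, and that of Mat2a from ZT1 to ZT5 was called without replicate 1 of ZT5 (0.0205). No paired analysis was possible because the labels give livers no shared replicate numbers and each liver came from another mouse. Depth limits none of the members, each with at least 631 estimated reads per liver.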
